A study of Mus musculus with 5 samples.

Results

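The genes described here are 10 genes of MHC class I and antigen processing out of the 27998 genes in the deposited mouse count table: H2-K1, H2-D1, B2m, Tap1, Tap2, Tapbp, Psmb8, Psmb9, Psmb10 and Nlrc5. They were taken by name, with earlier results of these data known, and all 10 are in the table. The cells are live CD45+ immune cells of 3 mice, each sampled at the tumour, the tumour-draining lymph node (dLN) and a non-draining lymph node (non-dLN). Mouse 1 received nivolumab_mIgG1_D265A, the PD-1 antibody nivolumab on a mouse IgG1 backbone with the exchange named in its label, mouse 2 received nivolumab_mIgG1, and mouse 3 received the isotype control MOPC21. The strain, the age of the mice, any allele they carry and the tumour model are not named in the texts at hand. The 9 samples were marked with hashtag antibodies and run as 1 pool, and no text at hand says which hashtag belongs to which mouse and site. The cells are therefore given as populations 1 to 9, by hashtag number, and no antibody or site was compared with another.

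MHC class I molecules carry short peptides from the inside of a cell to its surface, where CD8 T cells and NK cells read them. Proteasomes with the inducible subunits cut proteins, the TAP transporter moves the peptides into the endoplasmic reticulum, tapasin loads them there, and a heavy chain with beta-2 microglobulin takes them to the surface. Interferons, and above all interferon gamma, are known to raise the whole set, in part through the transactivator NLRC5 and through IRF1.

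Of the 10 genes, 7 lie in the H2 region of chromosome 17 (positions of GENCODE vM21, build GRCm38, all annotated as protein coding). Tapbp lies at chr17:33915899-33929292 on the plus strand and H2-K1 at chr17:33996017-34000347 on the minus strand. Psmb9 (chr17:34181987-34187764, minus strand), Tap1 (chr17:34187553-34197225, plus strand), Psmb8 (chr17:34197721-34201454, plus strand) and Tap2 (chr17:34203527-34216321, plus strand) are neighbours, and H2-D1 lies farther along at chr17:35262730-35267499 on the plus strand. B2m lies at chr2:122147686-122153083 on the plus strand, Nlrc5 at chr8:94434356-94527272 on the plus strand and Psmb10 at chr8:105935735-105938444 on the minus strand. Reads are assigned to these genes by sequence, and H2-K1 and H2-D1 share long stretches with each other and with H2-Q genes, so the split of counts among them is uncertain.

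Promoter windows (250 bases before and 50 after a gene's start, RefSeq, GRCm38.p6) were found for 8 of the 10 genes. They are shown because the most abundant of the genes carry the same letters at the same spacing. A link between these letters and the levels below was not tested. The bases before the first annotated base of H2-K1 (chr17:34000348-34000502, minus strand) and B2m (chr2:122147531-122147685, plus strand) read, 5′ to 3′, with the searched letters in capitals:

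H2-K1: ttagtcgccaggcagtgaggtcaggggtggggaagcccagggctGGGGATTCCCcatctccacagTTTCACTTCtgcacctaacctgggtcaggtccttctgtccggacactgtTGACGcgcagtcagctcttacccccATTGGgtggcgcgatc
B2m: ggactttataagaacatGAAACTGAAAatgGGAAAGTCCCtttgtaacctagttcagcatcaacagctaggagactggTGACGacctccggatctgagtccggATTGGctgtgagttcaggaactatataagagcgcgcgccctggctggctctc

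The core TGACG of an X2 box was found on either strand in 5 of the 8 promoters (B2m, H2-D1, H2-K1, Psmb9 and Tap1) and in 20.8% of all 32851 windows. The core ATTGG of a Y box, which reads CCAAT on the other strand, was found in 6 (those 5 and Tapbp) and in 37.4% of all windows. The pair in fixed spacing, TGACG followed 20 bases later by ATTGG, was searched after the letters had been seen. It was found in 31 windows of 27 genes (0.0944%), among them 3 of the set:

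H2-K1, chr17:34000359-34000388, minus strand: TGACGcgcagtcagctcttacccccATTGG
H2-D1, chr17:35262993-35263022, plus strand: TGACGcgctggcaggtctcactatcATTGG
B2m, chr2:122147609-122147638, plus strand: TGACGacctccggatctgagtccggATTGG

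A kappa B motif of 10 letters (the first run of capitals in the sites printed next) and the paired interferon regulatory factor letters GAANNGAAA, both added after the letters had been seen, were in H2-K1 and H2-D1 and in 0.107% and 7.52% of all windows. The blocks of 120 bases that start at the kappa B letters of H2-K1 and H2-D1 aligned with 104 identities over 121 columns (86.0%), 2 of them gaps. The site with both motifs reads in each gene, in the gene's own direction, with the motifs in capitals:

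H2-K1, chr17:34000429-34000458, minus strand: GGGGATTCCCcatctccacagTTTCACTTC
H2-D1, chr17:35262923-35262952, plus strand: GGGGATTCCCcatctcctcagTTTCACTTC

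B2m held the letters of an interferon-stimulated response element (the first capitals in its sequence, in 3.44% of all windows) and, next to them on the other strand, another kappa B form (0.411%). Psmb8 held TTCNNNGAA, the letters of a gamma-activated site (8.30%). TGACGTCA was in none of the 8 promoters (1.79% of all windows) and 1 more kappa B form in none (0.399%). Tap1 and Psmb9 start in opposite directions, and their windows overlap, so that the TGACG and the ATTGG letters counted in both are the same bases. Between the RefSeq starts used for these windows lie 225 bases, while the GENCODE gene spans printed above overlap. A match of letters is a description of the reference sequence and no evidence of binding.

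Levels are counts of unique molecular identifiers (UMIs) summed over the cells of a class per 1000000 UMIs of all genes (CPM). Their 95% intervals are exact Poisson, those of ratios conditional binomial and those of shares Clopper-Pearson, and all of them cover counting error only. A cell entered a class where the summed markers of that class reached 3 UMIs and 3 times the markers of other lineages, and none of the 10 genes was used as a marker. Of the 21273 cells with a hashtag, 15409 (72.4%) entered a class. The populations held 2056 to 2581 cells each, with medians of 3377 to 10660 UMIs per cell, and the values compare classes and not conditions, since no group has a replicate and no test was run. Foxp3 at 314 CPM in Treg-like cells against 0.914 elsewhere follows from the gates, which used it, and is no independent check of the classes. The 15 markers of non-immune cells summed to 13.9 to 165 CPM in every class. The class called other CD8 T-like holds CD8 T cells that met neither the naive nor the activated gate, and its leading genes (Dapl1, Tcf7, Lef1) are also those of naive cells.

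Over all cells, the set made up 11597 of each 1000000 UMIs. B2m was the gene of rank 32 by abundance, H2-D1 of rank 37 and H2-K1 of rank 49. The inducible proteasome subunits Psmb8, Psmb9 and Psmb10 ranked 180, 345 and 511, and Tapbp, Tap1 and Tap2 ranked 450, 572 and 807. Nlrc5 was by far the least abundant, at rank 3967, with 8 to 1833 UMIs in a class, so that its values are the least precise of the set. Lengths were not taken into account, so these ranks are of UMIs and are not levels per length.

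H2-K1, a classical heavy chain, was lowest in germinal centre B-like and highest in activated CD8 T-like cells. It stood at 718 CPM (680.4 to 756) in germinal centre B-like cells (120 cells), 1991 (1972 to 2011) in B-like cells (6251 cells) and 2325 (2285 to 2364) in naive CD8 T-like cells (1159 cells). Monocyte-like (382 cells, 2342), other CD8 T-like (1278 cells, 2455), macrophage-like (3375 cells, 2576) and naive CD4 T-like cells (906 cells, 2642) followed within a narrow range. The highest levels were those of NK-like (512 cells, 3856), Treg-like (259 cells, 3873), migratory DC-like (79 cells, 4495) and activated CD8 T-like cells (1088 cells, 4685). The intervals of monocyte-like and naive CD8 T-like cells overlapped, as did those of NK-like and Treg-like cells and those of migratory DC-like (4309 to 4688) and activated CD8 T-like cells (4639 to 4732), so the order within each of these pairs is not resolved.

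H2-D1, the other heavy chain, was lowest in the same class, with 1000.1 CPM in germinal centre B-like cells, 2365 in naive CD8 T-like and 2415 in B-like cells. It reached 3675 in Treg-like, 3734 in macrophage-like, 4328 in NK-like, 4375 in monocyte-like, 4771 in activated CD8 T-like and 5112 in migratory DC-like cells. The heavy chains differed in their balance between lineages. H2-D1 made up 65.1% (64.5 to 65.8) of the UMIs of both chains in monocyte-like cells, 59.2% in macrophage-like and 58.2% in germinal centre B-like cells, but 50.3% in naive CD4 T-like, 50.5% in activated CD8 T-like and 48.7% in Treg-like cells.

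B2m, the light chain of every class I molecule, was 903 CPM (861 to 946) in germinal centre B-like cells, 1802 in B-like and 2545 in naive CD4 T-like cells. It was 3365 in Treg-like, 3783 in NK-like, 4491 in monocyte-like, 4713 in activated CD8 T-like, 4775 in macrophage-like and 6488 (6264 to 6719) in migratory DC-like cells. In UMIs per cell the distance was wider, at 5.88 in B-like, 36.5 in activated CD8 T-like and 66.3 in macrophage-like cells. Depth per cell moves with this, with medians of 3021, 6903 and 13495 UMIs in those classes, which is why levels are given per 1000000 UMIs.

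**Figure D1:**
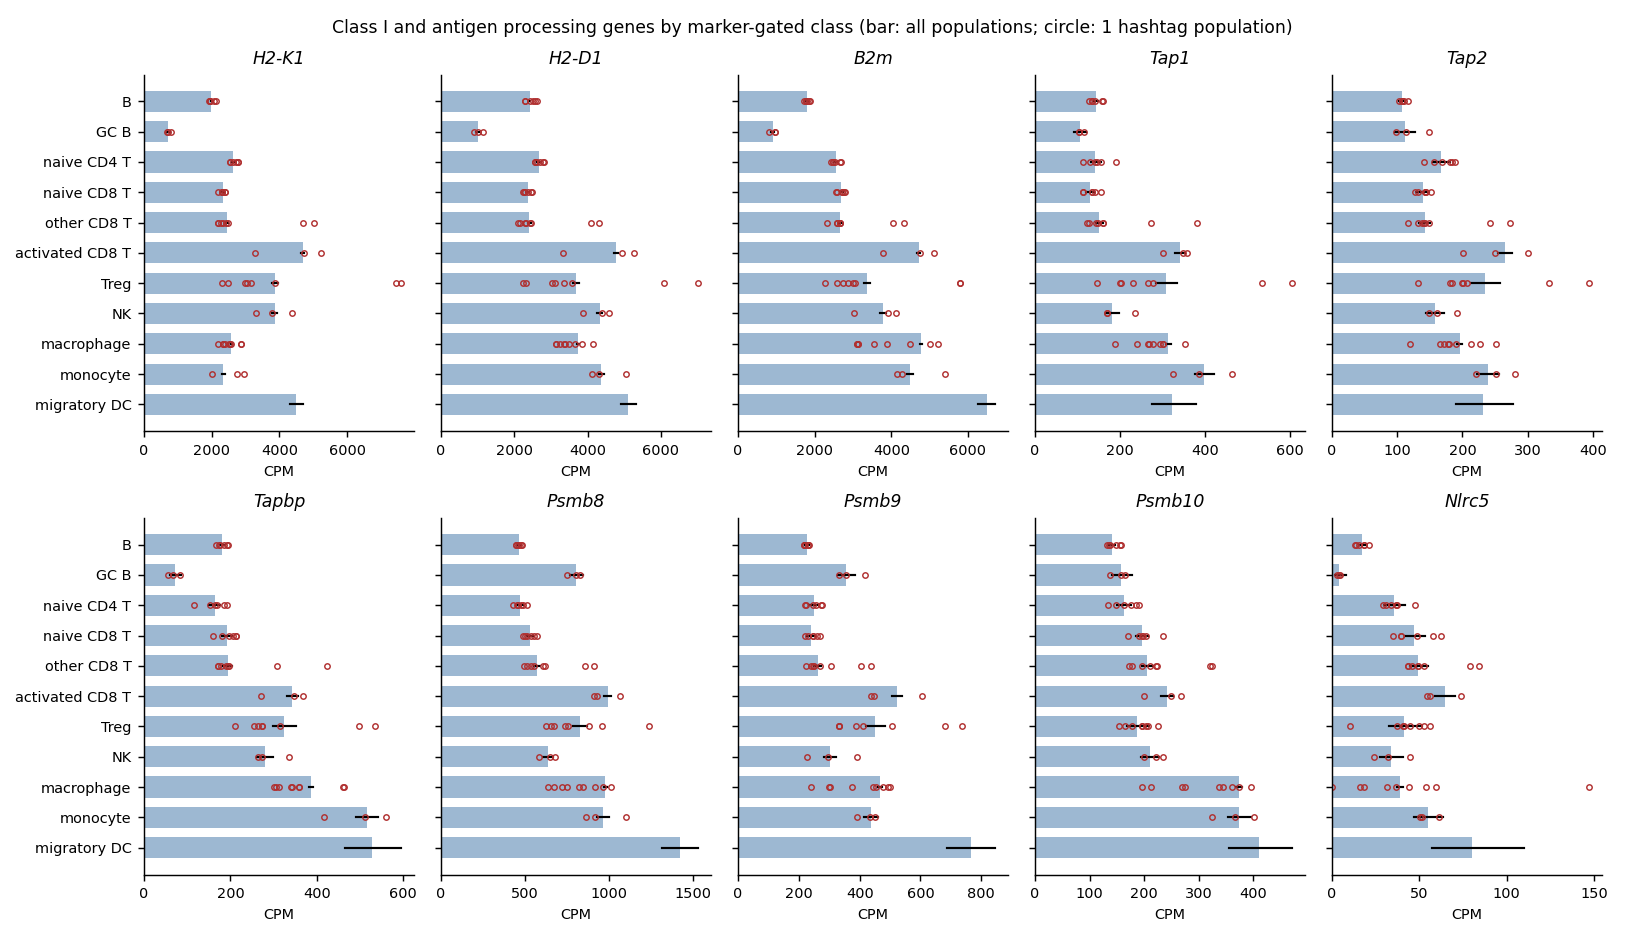
CPM of each of the 10 genes (1 panel per gene) by cell class. Bars give the class sum with its 95% Poisson interval, and red circles give single hashtag populations with at least 20 cells. Germinal centre B-like cells have the lowest H2-K1, H2-D1 and B2m bars (718, 1000.1 and 903 CPM), and the red circles of Treg-like cells are spread more widely than those of B-like cells.

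The transport and loading genes differed between T cell classes in their pooled levels. Naive and activated CD8 T-like cells came from different populations, so state and population cannot be told apart in these levels. Tap1, a chain of the peptide transporter, was 106 CPM (91.6 to 121) in germinal centre B-like cells, 129 in naive CD8 T-like, 142 in naive CD4 T-like and 143 in B-like cells. It was 309 in Treg-like, 314 in macrophage-like, 324 in migratory DC-like, 341 in activated CD8 T-like and 398 (377 to 420.3) in monocyte-like cells, with NK-like cells between at 182. Tap2, the other chain, was 108 in B-like and 112 in germinal centre B-like cells, whose intervals overlap, and 265 (254 to 276) at its highest, in activated CD8 T-like cells. Tapbp (tapasin), which holds the heavy chain to the transporter, spread most of the group, from 72.1 (60.6 to 85.0) in germinal centre B-like cells and 164 in naive CD4 T-like cells to 516 in monocyte-like and 528 in migratory DC-like cells.

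The inducible proteasome subunits did not follow the heavy chains in germinal centre B-like cells. Psmb8 (LMP7) was 806 CPM (766 to 846) there against 467 (457 to 476) in B-like cells, 468 in naive CD4 T-like, 528 in naive CD8 T-like and 636 in NK-like cells. Treg-like (828), monocyte-like (964), macrophage-like (978) and activated CD8 T-like cells (991) lay higher, and migratory DC-like cells highest at 1422 (1318 to 1532). Psmb9 (LMP2) had a similar order, from 227 in B-like and 241 in naive CD8 T-like cells to 523 in activated CD8 T-like and 765 (689 to 847) in migratory DC-like cells. Psmb10 (MECL-1) was the flattest among T cells, at 163 in naive CD4 T-like, 187 in Treg-like, 196 in naive CD8 T-like and 241 in activated CD8 T-like cells. It was highest in myeloid cells, at 374 in macrophage-like, 374 in monocyte-like and 410.2 in migratory DC-like cells.

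Nlrc5, the transactivator of class I genes, was 4.12 CPM (1.78 to 8.11, 8 UMIs) in germinal centre B-like cells and 17.1 (15.3 to 19) in B-like cells. T cells held 35.7 in naive CD4 T-like, 41.1 in Treg-like, 47.1 in naive CD8 T-like and 64.6 (59.2 to 70.2) in activated CD8 T-like cells. Macrophage-like cells held 39.1, monocyte-like cells 54.9 and migratory DC-like cells 80.4, the last with a wide interval of 57.2 to 109.9 on 39 UMIs.

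Activated CD8 T-like cells, gated on Pdcd1, Lag3, Gzmb and other effector genes, held more of all 10 transcripts than naive CD8 T-like cells (9 of 10 under the other total given below), and 4 of the 10 were at least 2-fold higher. The at least 2-fold rule also asked for an interval that leaves out 1 and 50 UMIs over both classes, and 16.8% of all 9678 genes measured met it upwards and 9.27% downwards. Tap1 was 2.64 times as high (2.44 to 2.87), Psmb9 2.17 times (2.04 to 2.31), H2-K1 2.02 times (1.98 to 2.06) and H2-D1 2.02 times (1.98 to 2.06). Tap2 (1.91), Psmb8 (1.88), Tapbp (1.79) and B2m (1.75) lay below the limit, and Nlrc5 (1.37, 1.18 to 1.59) and Psmb10 (1.23, 1.14 to 1.33) were closest to 1. The median log2 ratio of the set was 0.92, against 0.15 over all genes measured. Several comparisons below share a class (activated CD8 T-like cells enter 3 of the 8, macrophage-like cells 3), so their ratios are not independent of each other.

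This ratio could not be taken within a population with 20 cells of each class, so it is also one between populations: activated cells came nearly all from populations 1, 4 and 7, naive cells from the other 6. The 4 calls also rest on population 1, which holds 596 of the 1088 activated cells. Without it only Tap1 (2.50) stayed at least 2-fold higher, with H2-K1 at 1.77, H2-D1 at 1.80 and Psmb9 at 1.81. Leaving mitochondrial, ribosomal, immunoglobulin and T cell receptor genes out of the total divided every ratio of this comparison by 1.26, so that Tap1 was 2.10, H2-K1 1.60, Psmb9 1.73 and Psmb10 just under 1 (0.979).

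Of all genes measured, 16.8% were at least 2-fold higher in activated CD8 T-like cells and 9.27% lower. Among the other genes of class I presentation, 5 of 37 measured were higher and none was lower. They were the peptide loading chaperone Pdia3 (2.38), the peptidase Blmh (2.38) and the non-classical heavy chain genes H2-T23 (2.30), H2-M3 (2.20) and H2-T22 (2.20). Of 23 measured regulators, 4 were higher and 1 lower. The transcription factors Irf8 (35.5) and Stat2 (2.48), the interferon gamma receptor chain Ifngr1 (2.37) and the feedback inhibitor Socs1 (2.02) were higher, and Ifngr2, the other receptor chain, was 0.0332 (0.0225 to 0.0474) of its naive level.

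In Treg-like against naive CD4 T-like cells all 10 ratios were above 1 (8 of 10 under the other total, with Psmb10 at 0.972 and Nlrc5 at 0.977), and 1 of 10 genes was at least 2-fold higher, against 14.9% of 8246 genes measured (4.91% lower). That gene was Tap1 at 2.17 (1.93 to 2.44), and Tapbp was close to the limit at 1.98 (1.77 to 2.21). Psmb9 (1.81), Psmb8 (1.77), H2-K1 (1.47), Tap2 (1.4), H2-D1 (1.38) and B2m (1.32) followed. Psmb10 (1.15) and Nlrc5 (1.15, 0.861 to 1.53) were the lowest, and the interval of Nlrc5 held 1. The median log2 ratio was 0.52 for the set and 0.22 for all genes.

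Within the 6 populations that held 20 cells of both classes (2, 3, 5, 6, 8 and 9), Tapbp (1.37 to 2.34), Psmb8 (1.31 to 1.96) and Psmb9 (1.21 to 1.83) were above 1 each time. Ratios above 1 in all 6 were found for 19.1% of genes, and ratios below 1 in all 6 for 7.11% of genes and for none of the set. Tap1 ranged from 0.936 to 2.47 with a median of 1.60, H2-K1 from 0.833 to 1.42 and B2m from 0.914 to 1.20. The heavy chain differences of the pooled ratio were thus not seen in every population, and the call for Tap1 was lost without population 1 (1.90).

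Of the other presentation genes 4 of 35 were at least 2-fold higher in Treg-like cells and 1 lower, against 14.9% and 4.91% of genes. Blmh (3.63), H2-Q6 (2.69), the proteasome assembly factor Pomp (2.06) and the constitutive subunit Psmb5 (2.02) were higher, and the class I-like gene H2-T24 was 0.499 of the naive level. Regulators gave 3 higher and 1 lower of 22, with Irf8 at 9.01, the kinase Jak2 at 3.15 and Ifngr1 at 2.70, and Ifngr2 at 0.196.

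Among the classes with 3 or more populations of 20 cells, Treg-like cells had the widest range between these populations for H2-K1 (highest over lowest 3.30), B2m (2.55), Tap1 (4.18) and Psmb8 (1.98). H2-K1 was 7453, 3857, 2475, 7609, 3168, 3048, 5589, 2308 and 2969 CPM in populations 1 to 9, on 38, 30, 31, 27, 25, 33, 15, 33 and 27 cells. Populations 1, 4 and 7 were highest, with no overlap with the other 6, and population 7 rests on 15 cells, fewer than the 20 asked for elsewhere. B2m was 5791, 5784 and 4645 in populations 1, 4 and 7 and 2269 to 3044 in the other 6. Tap1 was 606, 535 and 647 in populations 1, 4 and 7 and 145 to 278 in the others.

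The same 3 populations held the 3 highest Treg-like levels for 8 of the 10 genes, which was so for 10.3% of the 5566 genes measured. For Tap2 they held 394, 333 and 472 CPM against 132 to 206, for Tapbp 498, 535 and 507 against 211 to 314, and for H2-D1 6096, 7025 and 5869 against 2227 to 3587. The proteasome subunits were closer, with Psmb8 at 1235, 957 and 1225 against 625 to 883 and Psmb9 at 737, 681 and 534 against 331 to 506. Psmb10 (225, 203 and 209.9 against 153 to 207) and Nlrc5 (56.4, 40.6 and 26.2 against 10.3 to 53.0) did not set these populations apart. Among the inducible subunits Psmb10 was thus again the flattest.

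Other values in the same cells did not all move with this order. Irf1, an interferon-induced transcription factor, was 376, 673 and 367 CPM in Treg-like cells of populations 1, 4 and 7. It was 351 to 455 in the others, so that only population 4 lay outside their range. H2-T23 was 1437, 1525 and 1242 CPM in populations 1, 4 and 7 against 368 to 604, and Psme2 883, 1022 and 1128 against 546 to 784. Psme1 also set these populations apart, but Pdia3, Erap1 and Calr did not. H2-Q7 set only populations 1 and 4 apart, at 1733 and 1809 CPM, with 455 in population 7 against 170 to 784 in the others. As given below, H2-Q7 was also low in population 7 of other classes. Irf1 and these presentation genes were chosen after their values were seen. The sum of 4 cycling markers was 686, 584 and 114 against 635 to 1514, the C1q genes of macrophages were 70.0 to 138 against 70.4 to 144, and median UMIs were 4367, 3868 and 6878 against 4452 to 6036. The C1q counts thus covered nearly the same range in these 3 populations as in the others, and the part of cycling cells in the difference was not tested. The median share of mitochondrial UMIs was 0.694%, 0.512% and 0.742% in populations 1, 4 and 7 against 1.27% to 1.44%, and the Cd3 genes summed to 4015, 3537 and 3236 CPM against 1750 to 2914. Both set the same populations apart, and their part in the difference was not tested. These are summed values of few cells, and differences in the makeup of the Treg-like cells and in RNA per cell cannot be told apart.

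**Figure D2:**
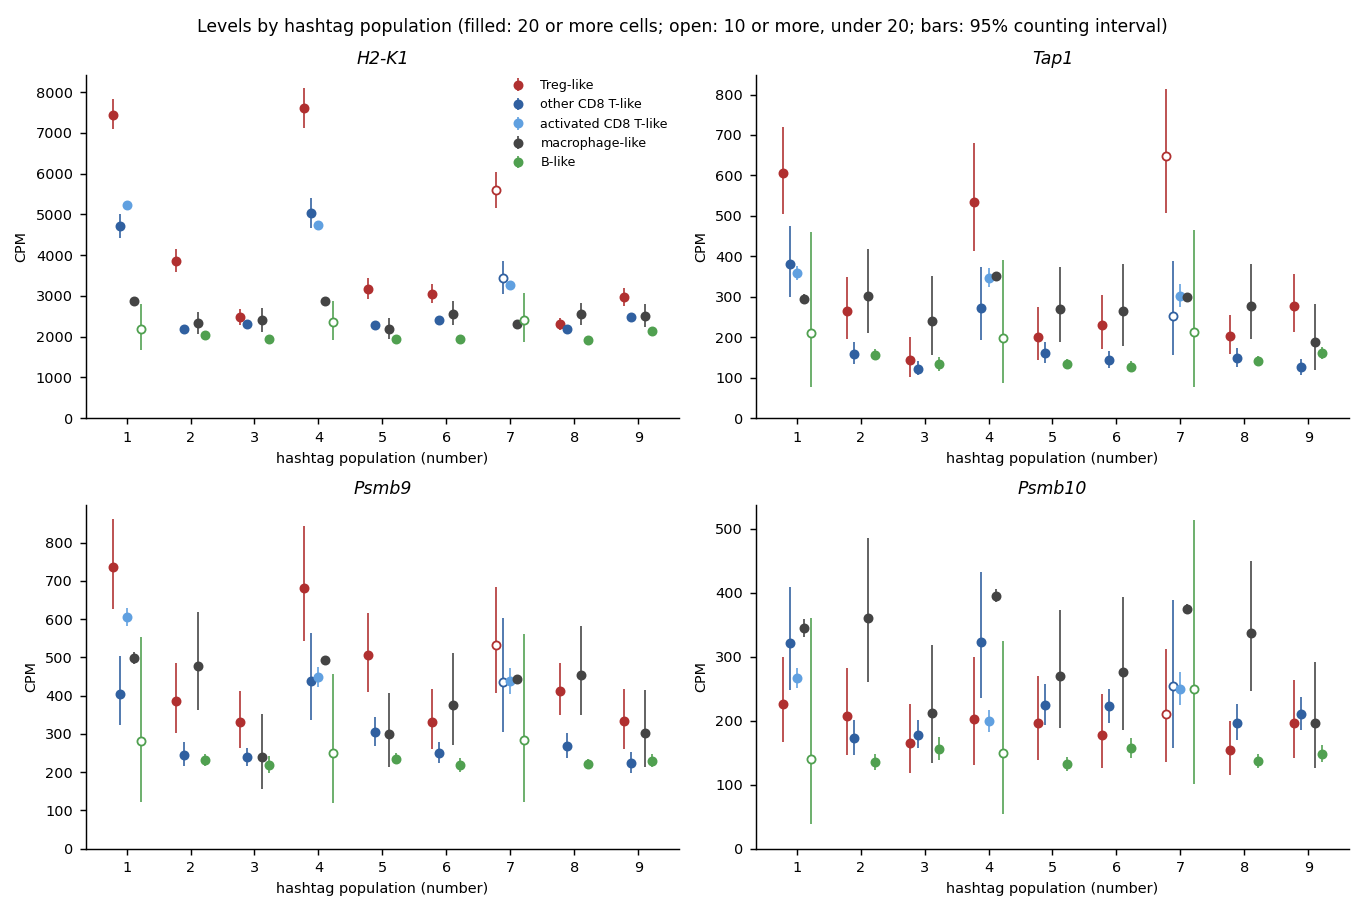
CPM of H2-K1, Tap1, Psmb9 and Psmb10 (1 panel each) in populations 1 to 9 for 5 cell classes, with 95% Poisson intervals. Filled points rest on at least 20 cells and open points on 10 to 19. Treg-like H2-K1 stands at 7453, 7609 and 5589 in populations 1, 4 and 7 and at 2308 to 3857 in the others, while B-like cells lie between 1926 and 2421 in every population.

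The CD8 T cells outside the naive and activated gates had the same order. H2-K1 in other CD8 T-like cells was 4706 CPM in population 1 (41 cells), 5024 in population 4 (31 cells) and 3443 in population 7 (13 cells), and 2187 to 2488 in the other 6. Tap1 was 380.2, 273 and 254 against 122 to 161, and B2m 4044, 4334 and 3202 against 2333 to 2667. All 10 genes had their 3 highest levels in populations 1, 4 and 7, which was so for 12.7% of the 8511 genes measured, and for 5 of the 10 with cells thinned to equal depth. In the same cells the median share of mitochondrial UMIs was 1.15%, 1.07% and 1.21% against 1.73% to 1.89%, and the Cd3 genes summed to 3155, 3170 and 2972 CPM against 2343 to 2640. Their part in the difference was not tested. This class is what the naive and activated gates left over, and its leading genes named above are those of the pooled class. Differences in its makeup between populations and in levels within a cell type cannot be told apart.

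Activated CD8 T-like cells were present in number only in populations 1, 4 and 7 (596, 320 and 149 cells). There H2-K1 was 5229, 4742 and 3277 CPM, H2-D1 5262, 4943 and 3329.8 and B2m 5122, 4738 and 3793. Population 7 was lowest for the heavy chains, B2m, Tap1 (359, 348 and 302), Tap2 (300.1, 249.8 and 200.3) and Tapbp (369, 348 and 271), but not for Psmb8 (1067, 913 and 926) or Psmb10 (267, 199 and 249.5). NK-like cells were also lowest in population 7 for H2-K1, at 4376, 3778 and 3311 (135, 243 and 91 cells), and monocyte-like cells at 2745, 2964 and 2017 (35, 104 and 232 cells). Macrophage-like cells had 2872, 2877 and 2321 (669, 1004 and 1547 cells). Population 7 was thus the lowest of the 3 for H2-K1 in all 4 of these classes, as it was for H2-D1 and B2m and for 4.35% of the 5219 genes measured in each. The rest of the set did not follow. Population 7 was lowest for 8 of the 10 genes in activated CD8 T-like cells (39.8% of all genes measured), 5 in NK-like (37.0%), 4 in monocyte-like (27.0%) and 5 in macrophage-like cells (38.5%). With cells thinned to equal depth these counts were 5 in activated CD8 T-like and 2 in monocyte-like cells. Tap1 and Tapbp were lowest in population 1 of monocyte-like cells, with intervals that overlapped those of population 7, and Psmb8 was highest in population 7 of macrophage-like cells. In Treg-like cells it was again the lowest of the 3 for H2-K1 but the highest for Tap1. Each of the populations is 1 sample, so the spread between samples of a kind is unknown.

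The heavy chains and B2m varied little between populations in resting lymphocytes, with a highest level at most 1.15 times the lowest. H2-K1 ranged from 1926 to 2138 CPM in B-like cells of 6 populations (median 1951), from 2191 to 2391 in naive CD8 T-like cells (median 2300.5) and from 2546 to 2791 in naive CD4 T-like cells (median 2675). B2m ranged from 1733 to 1871, from 2546 to 2802 and from 2417 to 2699 in the same classes. In populations 1, 4 and 7, where B-like cells were rare (10, 14 and 12 cells), H2-K1 was 2180 (1672 to 2795), 2362 (1911 to 2888) and 2421 CPM (1880 to 3069), and these intervals overlap the range of the other 6. The B cell markers of these few cells summed to 3880 to 5197 CPM against 6128 to 7047, and their Cd3 genes to 99.5 to 176 against 49.4 to 82.6. Other genes of the set varied more. The highest level was 1.69 times the lowest for Tap1, 1.65 times for Tapbp and 1.43 times for Psmb10 in naive CD4 T-like cells, and for Nlrc5 it was 1.63 times in B-like and 1.79 times in naive CD8 T-like cells.

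B-like cells lay below naive CD4 T-like cells for most of the set, with 1 of 10 genes at least 2-fold lower (7.93% of 10417 genes measured) and none higher (15.0%). Nlrc5 was that gene, at 0.479 of the T cell level (0.393 to 0.587). Tap2 was 0.645 (0.591 to 0.704), B2m 0.708, H2-K1 0.754, Psmb10 0.865, H2-D1 0.905 and Psmb9 0.911, while Psmb8 (0.998), Tap1 (1.01) and Tapbp (1.10) were close to 1. The median log2 ratio was -0.18 for the set and 0.09 for all genes.

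Within each of 6 populations H2-K1 (0.695 to 0.838), B2m (0.661 to 0.748), Tap2 (0.570 to 0.762) and Nlrc5 (0.354 to 0.694) were below 1. That was so for 4 of 10 genes of the set and 15.9% of all genes, and ratios above 1 in all 6 were found for 0 of 10 and 19.4% of all genes. The Nlrc5 call was lost without population 8 (0.513). Over all genes measured, 15.0% were at least 2-fold higher in B-like cells and 7.93% lower. Of 38 other presentation genes 3 were higher and none lower in B-like cells: Wdfy4 (192, 74.9 to 705), a gene of cross-presentation, H2-M3 (2.28) and H2-Q6 (2.13). Among 24 regulators 3 were higher and 3 lower, with Ciita, the transactivator of class II genes and a relative of Nlrc5, at 189 against 0.759 CPM. Irf8 (35.8) and Rfx5 (4.51) were also higher, and Socs1 (0.35), Ifngr2 (0.441) and, named to complete the count, Irf1 (0.461) lower. The family members thus lay in opposite order, Ciita higher and Nlrc5 lower in B-like cells.

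Germinal centre B-like cells were compared with B-like cells after the levels had been seen. In this comparison 4 of 10 genes were at least 2-fold lower (17.8% of 10304 genes measured) and none was higher (13.9%). H2-K1 was 803, 706 and 682 CPM in populations 2, 5 and 8 (27, 57 and 34 cells), H2-D1 1141, 1016 and 891, and Tapbp 66.9, 84.3 and 55.4. Each of these levels lay below every B-like level of the 6 populations. H2-K1 was 0.360 of the B-like level (0.341 to 0.380), Tapbp 0.398 (0.334 to 0.472), H2-D1 0.414 (0.396 to 0.433) and Nlrc5 0.241 (0.103 to 0.481, 8 UMIs). The Nlrc5 call was lost with cells thinned to equal depth, where its ratio was 0.634. B2m was just outside the rule at 0.501 (0.477 to 0.526), and Tap1 was 0.736.

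The proteasome subunits went the other way, with Psmb8 at 1.73 (1.64 to 1.82) and Psmb9 at 1.57 (1.45 to 1.70), while Tap2 (1.04) and Psmb10 (1.12, 0.991 to 1.26) did not differ beyond counting error. In each of the 3 populations 6 genes were below 1 (29.3% of all genes) and the 3 proteasome subunits above 1 (31.8%). H2-K1 was 2.56- to 2.82-fold lower within populations. Over all genes measured, 17.8% were at least 2-fold lower in germinal centre B-like cells and 13.9% higher. Of 24 regulators 9 were at least 2-fold lower and none higher, led by the interferon receptor chain Ifnar1 (0.219), Irf1 (0.314), Ifnar2 (0.317), Irf9 (0.322) and Ifngr2 (0.329). Of 37 other presentation genes 8 were higher and 7 lower. Cd1d1 (0.0454), H2-T24 (0.199) and H2-Q7 (0.268) were lower, and the peptidase Lap3 (3.64) and the constitutive subunit Psmb7 (2.96) higher. The sum of 4 cycling markers was 1717 CPM in germinal centre B-like and 65.4 in B-like cells, and median UMIs were 12558 and 3021. Their part in the differences was not tested.

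Macrophage-like and monocyte-like cells had nearly equal levels of the set. None of 10 genes was at least 2-fold higher (13.9% of 11418 genes measured) or lower (6.15%). Ratios ran from 0.713 (Nlrc5) and 0.749 (Tapbp) over 0.789 (Tap1) and 0.853 (H2-D1) to 1.10 (H2-K1). The median log2 ratio was -0.11 for the set and 0.17 for all genes. H2-D1, Tap1, Tap2 and Tapbp were below 1 in each of the 3 populations with both classes (19.8% of all genes), and Psmb9 was above 1 in each (26.3%). Of 24 regulators 2 were lower in macrophage-like cells, Jak2 (0.345) and Irf1 (0.495), and none higher. Of 38 other presentation genes 3 were higher, the peptidases Thop1 (3.85) and Lap3 (2.06) and the class I-like Mr1 (3.20), and 1 lower, the lipid-presenting Cd1d1 (0.317).

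By its median, the set differed between macrophage-like and activated CD8 T-like cells, each pooled over populations, about as much as all genes did. The pools were not matched: population 7 gave 1547 of 3375 macrophage-like cells and population 1 gave 596 of 1088 activated cells. The median log2 ratio was -0.14 for the set and -0.13 for all genes. None of 10 genes passed the 2-fold rule upwards (19.9% of 11747 genes) or downwards (16.2%). H2-K1 was nearest to it at 0.550 (0.544 to 0.556, and 0.473 with cells thinned to equal depth), and was below 1 in populations 1, 4 and 7 alike (0.549 to 0.708), as were Tap2 (0.739 pooled) and Nlrc5 (0.606), against 42.7% of all genes. Psmb10 was 1.55 times as high (1.48 to 1.62) and above 1 in the 3 populations (1.29 to 1.99), against 27.3% of all genes. B2m (1.01), Psmb8 (0.986) and Tap1 (0.920) were similar. Among 38 other presentation genes 3 were higher in macrophage-like cells and 4 lower, with Wdfy4 at 30.1, Lap3 at 7.67, Cd1d1 at 0.140, H2-Q7 at 0.214 and H2-Q6 at 0.310. Regulators gave 3 higher and 3 lower of 24, among them the receptor chains Ifngr2 (44.3) and Ifnar2 (3.63) and the transactivator Ciita (13.5) higher, and Ifngr1 (0.289) and Nfyb (0.288) lower.

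Migratory DC-like cells, few in number (79 cells, in no population 20), had the highest pooled level of 7 of the 10 genes, the exceptions being H2-K1, Tap1 and Tap2. The intervals overlapped those of the next class for Tapbp, Psmb10 and Nlrc5. Against macrophage-like cells 1 of 10 genes was at least 2-fold higher (13.8% of 11378 genes) and none lower (15.1%). That gene was Nlrc5 at 2.06 (1.46 to 2.82), on 39 UMIs, and it fell out of the rule without population 5, 6, 7, 8 or 9 (1.70 to 1.98) and with cells thinned to equal depth (1.13). H2-K1 was 1.75 times as high (1.67 to 1.82), Psmb9 1.64 times, Psmb8 1.45 times, H2-D1 1.37 times, B2m 1.36 times and Tapbp 1.36 times. Tap1 (1.03, 0.875 to 1.21), Tap2 (1.18, 0.970 to 1.42) and Psmb10 (1.10, 0.948 to 1.26) did not differ beyond counting error. In the 3 populations with 11, 11 and 16 cells (2, 7 and 8) H2-K1 was 5431, 3956 and 4955 CPM and B2m 9432, 4256 and 6570.5, so B2m varied more than 2-fold. Of 39 other presentation genes 7 were higher and 6 lower, the extreme being H2-M2, a non-classical heavy chain gene, at 1253 against 0.875 CPM, and Cd1d1 (14.7) was next among those higher. Of 24 regulators 9 were higher and 3 lower, with Jak2 at 8.40, Rfx5 at 2.76 and Nfya at 2.75, and with Ifngr1 at 0.270 and Ifnar2 at 0.306.

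NK-like cells lay below activated CD8 T-like cells for all 10 genes, but none of 10 was at least 2-fold lower (7.91% of 9497 genes) or higher (7.32%). Nlrc5 (0.521), Tap1 (0.533, 0.487 to 0.583), Psmb9 (0.578), Tap2 (0.594) and Psmb8 (0.642) were the lowest ratios, and H2-K1 (0.823), Psmb10 (0.871) and H2-D1 (0.907) the highest with Tapbp (0.817) and B2m (0.803). The median log2 ratio was -0.48 for the set and 0.03 for all genes. B2m, Tap1, Tap2, Psmb8, Psmb9 and Nlrc5 were below 1 in each of populations 1, 4 and 7, 6 of 10 genes against 22.5% of all genes, and none was above 1 in each (26.5%). Of 37 other presentation genes 2 were lower, H2-T24 (0.342) and Cd1d1 (0.465), and of 22 regulators 2 were higher, Irf8 (3.05) and Nfkb1 (2.42).

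**Figure D3:**
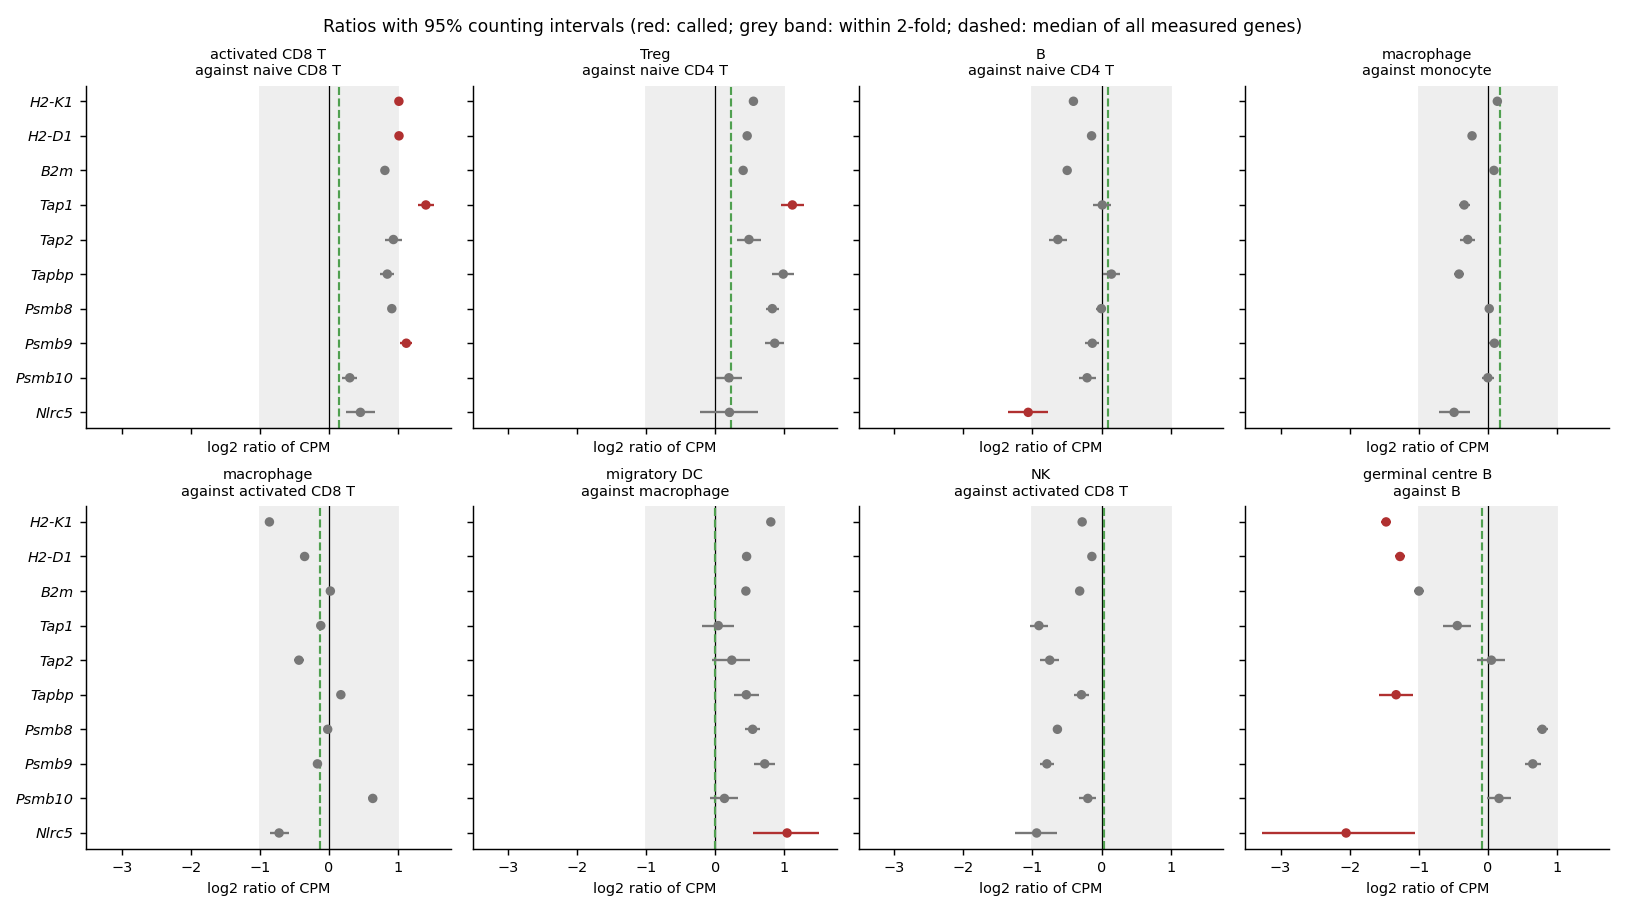
Log2 ratio of CPM of the 10 genes in 8 comparisons of cell classes (1 panel each), with 95% intervals of counting error. Red points passed the 2-fold rule, the grey band marks differences under 2-fold and the dashed green line the median of all genes measured. Red points lie to the right for Tap1, Psmb9, H2-K1 and H2-D1 in activated CD8 T-like cells and to the left for H2-K1, H2-D1, Tapbp and Nlrc5 in germinal centre B-like cells.

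Each inducible proteasome subunit takes the place of a constitutive one, and the share of the inducible one in the UMIs of the pair compares classes without the total. Psmb9 made up 61.3% (60.2 to 62.4) of Psmb9 and Psmb6 in B-like cells, 62.2% in naive CD4 T-like, 62.3% in naive CD8 T-like and 62.7% in NK-like cells. It made up 69.0% in monocyte-like, 69.9% (67.3 to 72.5) in Treg-like, 72.5% (71.3 to 73.6) in activated CD8 T-like and 80.1% (76.2 to 83.7) in migratory DC-like cells. In Treg-like cells the share was 80.5% and 84.0% in populations 1 and 4, 72.6% (61.8 to 81.8) in population 7 and 61.9% to 72.1% in the other 6. In other CD8 T-like cells it was 82.0% and 79.2% in populations 1 and 4, between 60.4% and 86.4% by its interval in population 7 (36 UMIs of Psmb9 and 12 of Psmb6) and 59.1% to 63.6% in the other 6. Populations 1 and 4 were thus highest in both classes, while population 7, also high in heavy chains, was not resolved from population 5 (72.1%) among Treg-like cells.

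Psmb8 made up 79.5% to 83.4% of Psmb8 and Psmb5 in 9 of the 11 classes. It was 73.0% (71.1 to 74.9) in germinal centre B-like and 91.6% (89.4 to 93.5) in migratory DC-like cells. Psmb10 made up 47.5% (43.6 to 51.5) of Psmb10 and Psmb7 in germinal centre B-like cells, 65.1% (60.9 to 69.1) in Treg-like, 70.6% in B-like, 73.8% in activated CD8 T-like, 77.0% in macrophage-like and 79.9% in monocyte-like cells. Germinal centre B-like cells were lowest in all 3 pairs, with an interval that overlapped that of B-like cells for Psmb9 (58.1%, 55.2 to 60.9), although their Psmb8 and Psmb9 levels were above those of B-like cells. Genes of different length are compared here only as a share between classes.

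**Figure D4:**
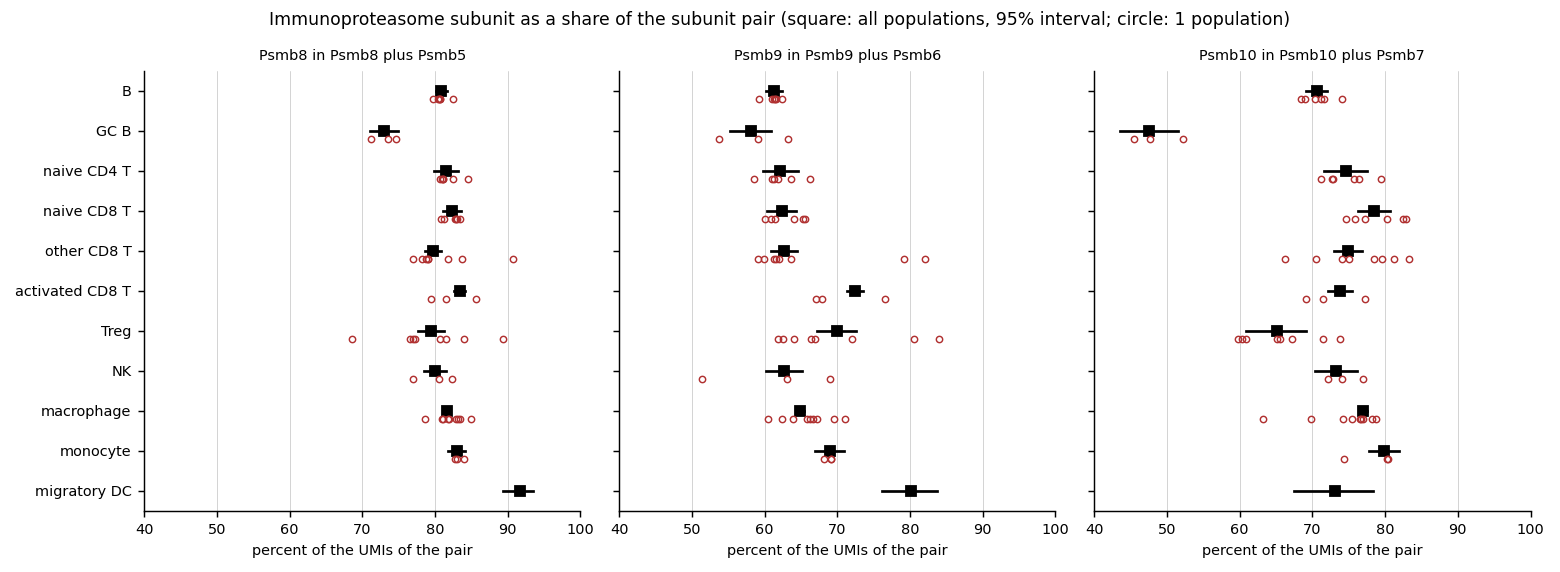
Share of the inducible subunit in the UMIs of its pair with the constitutive one, in percent (axis from 40% to 100%), for Psmb8, Psmb9 and Psmb10 by cell class, with 95% Clopper-Pearson intervals. Germinal centre B-like cells are lowest for each (73.0%, 58.1% and 47.5%), and migratory DC-like cells are highest for Psmb8 and Psmb9 (91.6% and 80.1%).

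Single cells were compared after thinning each to 1500 UMIs, which left out 470 shallower cells. The median count of H2-K1, H2-D1 and B2m together was 9 or 10 in B-like cells of each population, 3 or 4 in germinal centre B-like, 10 or 11 in naive CD8 T-like and 11 to 12 in naive CD4 T-like cells. Treg-like cells had medians of 30 and 32 in populations 1 and 4 and of 11.5 to 18 in the other 6 with 20 cells. The 25th percentiles of populations 1 and 4 (21.25 and 26.5) were above the medians of those 6, so the high levels there are not those of a few cells. Activated CD8 T-like cells had medians of 23, 23 and 17 in populations 1, 4 and 7 and NK-like cells of 19, 18 and 15.

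Macrophage-like cells had medians of 16, 17 and 15 in populations 1, 4 and 7, but 10th percentiles of only 3, 5 and 5. The part of RNA quality in this low end was not tested. In 546 of the 3375 macrophage-like cells (16.2%) the nuclear transcripts Gm26917 and Neat1, noticed after this spread had been seen, held at least 0.1% of the UMIs. These cells had a median of 4289.5 UMIs against 15681 in the others, 3.49% against 1.06% mitochondrial UMIs, and 1950 against 6314 CPM of the cytosolic Gapdh. H2-K1 was 1491 against 2642 CPM in them, H2-D1 1725 against 3857, B2m 1922 against 4950.3 and Psmb8 389 against 1014, but Nlrc5 168 against 31.2. In the other classes such cells made up 0.833% to 10.1%. Without them Nlrc5 in macrophage-like cells was 0.492 of the activated CD8 T-like level and passed the 2-fold rule downwards, and the ratio of migratory DC-like to macrophage-like cells became 2.59. The outcome for Nlrc5 in macrophage-like cells thus depends on these cells.

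The macrophage-like cells outside populations 1, 4 and 7 (21 to 31 cells in each) held 267 to 718 CPM of B cell markers and 209 to 857 CPM of Cd3 genes, against 27.7 to 58.3 and 28.8 to 109 in populations 1, 4 and 7. Their H2-K1 was 2199 to 2569.6 CPM, and the part of lymphocyte RNA in these levels was not tested.

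**Figure D5:**
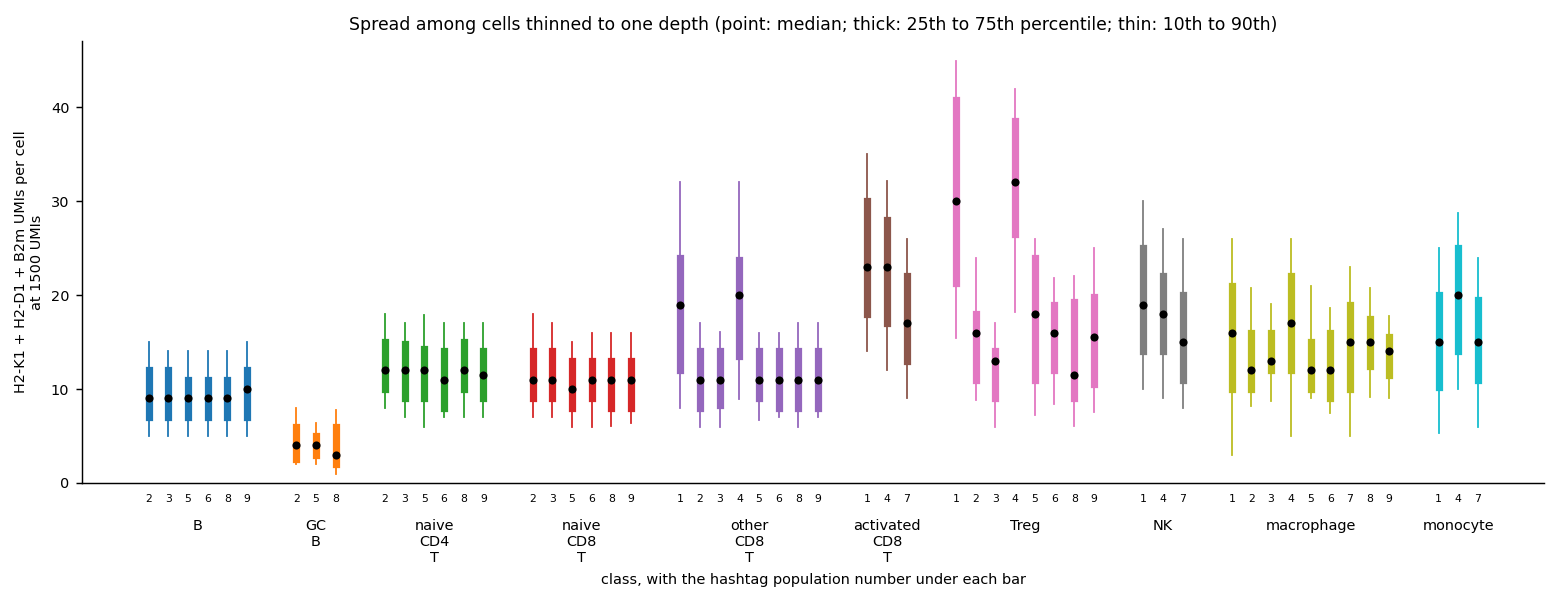
UMIs of H2-K1, H2-D1 and B2m together per cell after thinning to 1500 UMIs, by class and population (at least 20 cells). Points are medians, thick lines the 25th to 75th and thin lines the 10th to 90th percentiles. Treg-like cells of populations 1 and 4 have medians of 30 and 32, and macrophage-like cells have thin lines that reach down to 3 and 5.

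Over the 55 units of a class in a population with at least 20 cells, the set moved largely together. Pearson's r of log2(CPM + 10) is given as a description: the units share the pool, the total by which they are divided and, within a class, its cell type. B2m and H2-D1 had the highest r of any pair (0.929), Psmb8 and Psmb9 0.880, H2-D1 and Tapbp 0.902 and the neighbours Tap1 and Psmb9 0.808. Psmb8 and H2-K1 had 0.315, and Nlrc5 and Psmb9 the lowest r, 0.086. Against the mean of the other 9, B2m (0.933) and Tap1 (0.900) were closest and Psmb8 (0.656) and Nlrc5 (0.499) farthest.

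Among genes outside the set and the lists with a mean of at least 20 CPM, the 10 most like the mean of the set were Zbp1 (0.923), Gbp7 (0.922), Xaf1 (0.919), Isg15 (0.917), AW112010 (0.895), Ifi47 (0.889), Rab8b (0.876), Phf11b (0.874), Mapkapk3 (0.874) and Ubash3b (0.871). The median r over all 6437 genes with that mean, those of the set and the lists included, was -0.03, and 1.07% reached 0.8. Isg15, which encodes a ubiquitin-like protein, was 5.15 CPM in germinal centre B-like, 34.0 in B-like, 68.0 in naive CD4 T-like, 215 in Treg-like, 542 in activated CD8 T-like and 1509 in monocyte-like cells. Germinal centre B-like cells were lowest and monocyte-like cells high for this gene, as for Tap1.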

How the data were processed

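The deposited matrix holds raw UMI counts of 1 pool, per feature and cell. The authors made it from 4 libraries of gene expression and 1 of hashtags with Cell Ranger 8.0.1 and the build mm10, as the submitters' processing notes name them. Neither those notes nor the labels used here record how intron reads were handled. Of 21624 barcodes, none of them repeated, 93 failed the filters of the series' design text (at least 500 UMIs and 200 genes, at most 20% mitochondrial UMIs), which left 21531 cells. A population was given to 21273 cells in which the top antibody capture feature reached 3 times the next, and 258 cells got none. Cells that met more than 1 gate (19) entered no class.

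Counts were summed by class and population and divided by the total (Python 3.11.15, numpy 2.4.6, scipy 1.17.1, pandas 2.3.3, matplotlib 3.10.9). Sums, intervals and the call rule were tested on simulated data. Doublets were not removed for the values reported. Scrublet (scanpy 1.11.5, anndata 0.12.19, expected 8%) called 184 cells (0.855%), 61 of them in a class, and leaving them out was an alternative. The members and the lists were chosen with earlier results of these data known, and the gate thresholds were set after marker counts had been seen. The text names all 10 members, the list genes among the 5 largest absolute log2 ratios of a comparison, and the 10 genes of most similar pattern. Genes named by another choice are marked. Of 41 pathway genes listed, 40 are in the table, as are all 24 regulators. No antibody, mouse or site was compared, since no label ties a hashtag to them. With counts from 1 pool and no replicate, intervals cover counting error only. The values of 1 gene of the regulator list are not reported here.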

Additional observations from a re-analysis of the deposited data

How the results depend on the processing

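Settings were compared over 118 counts and ratios, with 13 settings besides leaving out populations. Only ratios past the 2-fold rule were checked for a change of direction. Of these 0 changed, which their distance from 1 made likely beforehand. The ratios that crossed 1 in some setting lay between 0.890 and 1.23 as reported. The number of the 10 genes past the 2-fold rule did move. With a 1.5-fold limit it was 8 higher in activated against naive CD8 T-like cells, 4 higher in Treg-like against naive CD4 T-like, 2 lower in B-like against naive CD4 T-like, 1 higher and 2 lower in macrophage-like against activated CD8 T-like, 3 higher in migratory DC-like against macrophage-like, 5 lower in NK-like against activated CD8 T-like, and 2 higher in germinal centre B-like against B-like cells. With each cell thinned to 1500 UMIs it was 2 higher in Treg-like, 0 lower in B-like, 1 lower in macrophage-like against activated CD8 T-like, 0 higher in migratory DC-like and 2 lower in NK-like cells. With mitochondrial, ribosomal, immunoglobulin and T cell receptor genes left out of the total it was 1 higher in activated CD8 T-like and 0 higher in Treg-like cells. With the mean of per-cell CPM it was 2 higher in Treg-like, 1 lower in macrophage-like against activated CD8 T-like and 0 higher in migratory DC-like cells. By the median ratio within populations it was 0 in Treg-like cells, and without cells rich in nuclear RNA, a setting added after the data had been seen, 1 lower in macrophage-like against activated CD8 T-like cells. The cause was not tested. Leaving out 1 population at a time gave 1 to 5 higher in activated CD8 T-like, 0 to 2 higher in Treg-like, 0 to 1 lower in B-like, 0 to 1 higher in migratory DC-like and 4 to 5 lower in germinal centre B-like cells. The ratios that moved by over 1.5 times were those of Nlrc5, to 1.13 (thinned) and 1.32 (per-cell mean) in migratory DC-like against macrophage-like cells and to 0.634 (thinned) in germinal centre B-like against B-like cells. The count of 8 genes highest in populations 1, 4 and 7 among Treg-like cells was 7 with a stricter gate (factor 6) and 8 in the other settings run. The count of 10 in other CD8 T-like cells was 5 with thinned cells and 9 or 10 in the other settings run. Where populations held enough cells of both classes of a comparison, the ratios within those populations are the paired values given. Activated against naive CD8 T-like and migratory DC-like against macrophage-like cells had no such population, so no paired values are given for them. No paired test was run, since populations of unlabelled origin are not replicates of a group.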

Other observations

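The class I genes H2-Q6 and H2-Q7, which are not part of the set and were chosen after their values were seen, differed between populations. In B-like cells H2-Q6 was 318, 339, 298 and 318 CPM in populations 2, 3, 5 and 6 but 161 and 181 in populations 8 and 9, and H2-Q7 was 262, 288, 246 and 249.8 against 138 and 166. Their neighbour H2-Q4 was 326 to 379 CPM in all 6. In naive CD8 T-like cells H2-Q7 was 651, 616, 545 and 538 CPM in populations 2, 3, 5 and 6 and 209.9 and 269.5 in populations 8 and 9. In macrophage-like cells H2-Q7 was 301 and 281 in populations 1 and 4 and 112 in population 7, and in activated CD8 T-like cells 1111, 936 and 315. Populations 7, 8 and 9 were thus lower than populations 1 to 6 in each of these classes where they had at least 100 cells. H2-K1 and H2-D1 showed no such split in B-like cells. In macrophage-like and activated CD8 T-like cells, however, population 7 was also below populations 1 and 4 for H2-K1, H2-D1 and H2-Q4. H2-Q4 was 287, 310 and 233 CPM in populations 1, 4 and 7 of macrophage-like cells and 565, 479 and 374 in activated CD8 T-like cells. H2-Q6 and H2-Q7 are near copies of each other and of H2-D1, so the split of counts among them is uncertain. The cause was not tested.

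The data come from 3 mice and 1 pool, with 1 sample behind each hashtag population, so no difference between populations can be set against a spread between animals. The classes rest on marker gates, and 5864 cells with a hashtag entered none. The C1q genes of macrophages were counted in every other class (34.0 to 225 CPM), and whether through free RNA, doublets or the gates was not tested. The reference carries 1 set of H2 alleles, and no label names the strain of the mice. Nlrc5 is limited by depth, with at most 1833 UMIs in a class.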
